A study of Homo sapiens with 6 samples.

Results

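Peaks over 3 genes of the actin and spectrin cytoskeleton, MYH9, ACTN4 and SPTAN1, were described in RNA recovered with an anti-RBM8A antibody from AGS cells. The genes were chosen by the peaks that these same lists hold over them, so their peak counts, folds and recurrence describe the choice and were not tested. A peak belonged to a gene when it overlapped the gene's interval in hg19 coordinates. These intervals were chr22:36677323-36784063 for MYH9, on the minus strand, chr19:39138327-39221170 for ACTN4 and chr9:131314837-131395944 for SPTAN1, both on the plus strand. They span 107, 82.8 and 81.1 kb. Of 5437 peaks in the 3 lists, 68 overlapped a gene: 24 of 1480 in replicate 1, 26 of 2155 in replicate 2 and 18 of 1802 in replicate 3. All 68 lay wholly inside an interval.

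MYH9 encodes the heavy chain of non-muscle myosin IIA, the motor that pulls on actin filaments in non-muscle cells. ACTN4 encodes alpha-actinin-4, which crosslinks actin filaments and is found at cell adhesions and along stress fibres. SPTAN1 encodes the non-erythroid alpha spectrin, which pairs with beta spectrins to form the mesh under the plasma membrane. RBM8A, also called Y14, belongs to the core of the exon junction complex, a mark that splicing leaves upstream of exon-exon junctions and that translation removes. All 3 genes are spliced from many exons. No exon annotation of hg19 was used here, so no peak is assigned to an exon, an intron or a UTR.

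AGS is an established gastric adenocarcinoma line, labelled wild type and grown with no treatment. The study holds 6 samples, 3 RBM8A immunoprecipitates and 3 inputs, all of 1 labelled batch, and the labels do not say whether replicates were separate cultures, so their spread may be technical. Only the immunoprecipitates had peak lists here, 1 each, and the inputs were not analysed here. No sample was precipitated with a control antibody, so RNA held by RBM8A and RNA held by the beads cannot be told apart. Nor can more RNA of a gene in the cells be told apart from better recovery of it. Peaks carry no strand. In the RefSeq table (GRCh38, used for names only) MIR6819 overlaps MYH9, LOC107985291 and CAPN12 overlap ACTN4, and DYNC2I2 overlaps SPTAN1, so reads of those genes would count here too. The submitters' processing notes name hg38, but the lists were read as hg19, to which their sequence names point. At the GRCh38 positions of the 3 genes the lists held 0 peaks, against 68 at the hg19 positions. The genes were chosen by their peaks at the hg19 positions, so these counts alone cannot settle the build.

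All 3 genes carried several peaks in every list. MYH9 had 8, 7 and 7 peaks in replicates 1, 2 and 3, a mean of 7.33 ± 0.577 (SD, n = 3). ACTN4 had 5, 6 and 4 peaks, a mean of 5.00 ± 1.00 (SD, n = 3). SPTAN1 had 11, 13 and 7 peaks, a mean of 10.3 ± 3.06 (SD, n = 3). MYH9 and ACTN4 did not overlap in these counts, nor did SPTAN1 and ACTN4, while MYH9 and SPTAN1 both had 7 in replicate 3. Replicate 3 gave the fewest peaks for ACTN4 and SPTAN1, although its list was longer than that of replicate 1.

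Per unit of length SPTAN1 came first. SPTAN1 held 136, 160 and 86.3 peaks per Mb, or 127 ± 37.7 (SD, n = 3). MYH9 held 74.9, 65.6 and 65.6, or 68.7 ± 5.41, and ACTN4 held 60.4, 72.4 and 48.3, or 60.4 ± 12.1 (SD, n = 3). The ranges of MYH9 and ACTN4 overlapped on this scale, and SPTAN1 lay above both in every replicate. The chromosomes they lie on held far fewer peaks per Mb. Chromosome 9 held 0.463 ± 0.109, chromosome 22 held 0.916 ± 0.276 and chromosome 19 held 3.16 ± 0.627 (SD, n = 3). The genes were chosen by their peaks, and the chromosome rates include sequence outside genes, so this contrast describes the choice only.

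**Figure D1:**
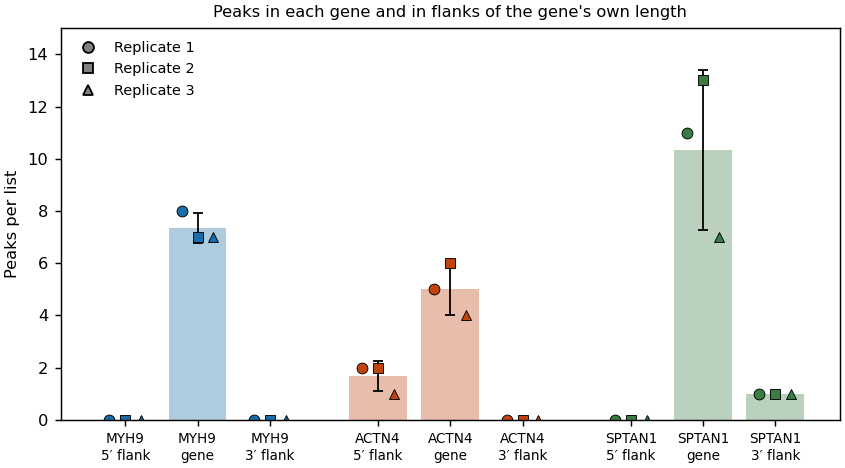
Number of peaks (y axis) in each gene and in a flank of the gene's own length on its 5′ and 3′ side; points are the 3 replicates, bars their mean and whiskers 1 SD. The 3 genes hold between 4 and 13 peaks in each list, and no flank holds more than 2.

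The flanks of the genes held fewer peaks than the genes themselves. Flank counts were not set against the peaks per Mb of the chromosomes. A flank as long as the gene held 0 peaks on either side of MYH9 in every list. For ACTN4 the 5′ flank held 2, 2 and 1 peaks in replicates 1, 2 and 3 and the 3′ flank 0, and for SPTAN1 the 3′ flank held 1 in each list and the 5′ flank 0. Just outside the intervals, the nearest peak to ACTN4 lay 21.6, 12.9 and 21.8 kb before its start, with folds of 4.22, 3.57 and 3.52 and pileups of 5, 4 and 4 fragments. The nearest to SPTAN1 lay 50.5, 50.4 and 50.6 kb past its 3′ end, with folds of 3.91, 4.34 and 4.96. Past the 3′ end of MYH9 the nearest lay 471, 472 and 472 kb away.

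As a background, chromosomes 1 to 22, X and Y were tiled into 30970 windows of 100 kb. At least 1 summit in every list was found in 489 windows (1.58%), and at least 4 in every list, the lowest count of the 3 genes, in 16 windows (0.0517%). The limit of 4 was taken from the genes themselves, which were chosen by their peaks, and the windows include sequence outside genes. How rare such windows are thus describes the choice only. The window that holds all of SPTAN1 had 11, 13 and 7 summits, and of the 16 only a window of chromosome 2 from 54800001 to 54900000 had a higher lowest count, with 9, 8 and 9. MYH9 and ACTN4 are each divided by a window boundary. The MYH9 window nearer its 3′ end was among the 16 with 6, 5 and 4 summits, while the windows of ACTN4 were not.

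Peaks sat towards the 3′ end of the genes. Of the 68 summits, 57 lay in the 3′ 50% of their gene, 22 of 22 in MYH9, 14 of 15 in ACTN4 and 21 of 31 in SPTAN1. The median summit stood at 84.6%, 82.2% and 86.6% of the length of MYH9 from its 5′ end in replicates 1, 2 and 3, a mean of 84.5% ± 2.19 (SD, n = 3). In ACTN4 it stood at 82.9%, 73.2% and 87.9%, a mean of 81.3% ± 7.48 (SD, n = 3). In SPTAN1 it stood at 68.9%, 68.3% and 63.9%, a mean of 67.0% ± 2.72 (SD, n = 3). SPTAN1 thus lay below the other genes in every replicate. Summits of a gene share its RNA and its library, so these positions were not tested. Positions in other genes of the lists were not counted, so no background share stands beside these. They are shares of the whole interval, introns included, and exon positions were not used. A trait of these genes therefore cannot be told apart from a general one.

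**Figure D2:**
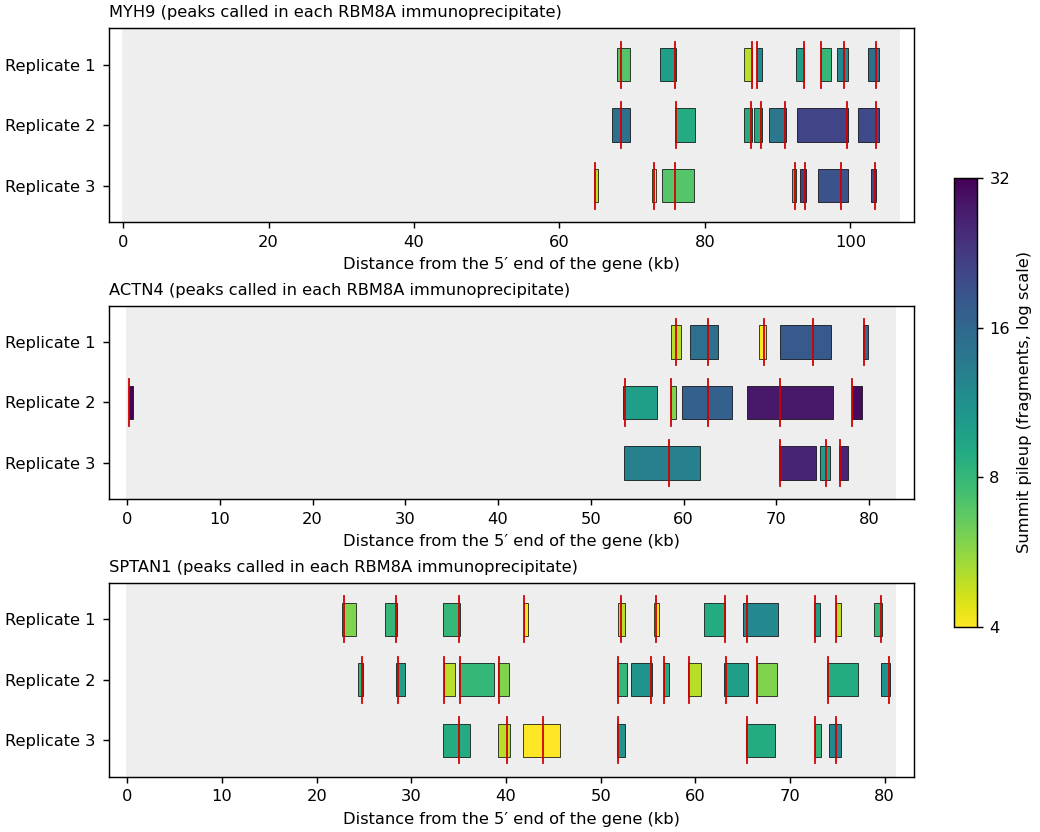
Peaks of each RBM8A immunoprecipitate along the 3 genes, as distance in kb from the 5′ end; boxes are peaks, coloured by the pileup at the summit on a log scale from 4 to 32 fragments, red lines are summits, and the grey band is the gene. The first 64.7 kb of MYH9 hold no peak in any list, ACTN4 has 1 peak at its start and no other before 53.5 kb, and SPTAN1 peaks begin at 22.7 kb.

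Long 5′ stretches were empty. In MYH9 the first base under a peak in any list lay 64.7 kb from the 5′ end, 60.6% of the way along the gene. In SPTAN1 it lay 22.7 kb from the 5′ end, or 28.0% of the way. ACTN4 held 1 peak just past its start in replicate 2, and the next peak toward the 3′ end began at 53.5 kb in replicate 2, 53.6 kb in replicate 3 and 58.7 kb in replicate 1. In the final 20% of the gene, 42.6% of the bases of MYH9, 46.3% of those of ACTN4 and 36.4% of those of SPTAN1 lay under a peak, as a mean over lists. In the 20% before it the shares were 23.3%, 43.8% and 23.1%, and SPTAN1 had 33.3% in the 20% before that.

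MYH9, the myosin heavy chain, had 10 separate covered regions, 3 of them found in all 3 lists. The one nearest the 3′ end, chr22:36680193-36683050, held 1 peak per list. Its summits were at 36680502, 36680490 and 36680627 in replicates 1, 2 and 3, that is 3179, 3167 and 3304 bp from the 3′ end. Their folds were 4.52, 5.37 and 4.13, at pileups of 15, 20 and 20 fragments. The exact 95% Poisson intervals of these pileups, which cover counting error only, were 8.40 to 24.7 in replicate 1 and 12.2 to 30.9 in each of the others, and they overlap.

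The next region of MYH9 in all lists, chr22:36684418-36691530, was cut differently in each. Replicate 2 had a single peak of 7008 bp there with a pileup of 21, where replicate 1 had 3 peaks with pileups of up to 12 and replicate 3 had 2 with pileups of up to 21. The strongest fold in it was 3.97, 6.61 and 5.41 in replicates 1, 2 and 3, each at another summit. The region farthest from the 3′ end of the 3, chr22:36705378-36710221, had its summits at 36708211, 36708109 and 36708171, within 102 bp of each other. Folds there were 7.74, 3.64 and 3.96 and pileups 10, 9 and 7, so the pileups differed by at most 3 fragments.

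The MYH9 peak with the highest fold in replicate 2 was not found in every list. At chr22:36714302-36716848, replicate 2 had a fold of 11.4 with a pileup of 15, and replicate 1 had its summit 41 bp away with a fold of 5.53 and a pileup of 7. Replicate 3 had no peak there. Of the other regions, 2 were found in replicates 1 and 2 only at chr22:36696209-36697249 and chr22:36697618-36698655, and 4 in a single list. Of the 4, 3 came from replicate 3, with pileups of 5, 4 and 7. The other, from replicate 2, had a pileup of 14 and a fold of 6.93. The lowest fold of MYH9 in replicate 1, 3.28 at a pileup of 12, was that of the peak at chr22:36684446-36685941, inside a region of all 3 lists.

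ACTN4, the actin crosslinker, had 6 covered regions, 2 of them in all 3 lists. Its peaks of the highest fold in replicates 1 and 2 had their summits 18 bp apart, at 39200933 in replicate 1 and 39200951 in replicate 2, 20.2 kb from the 3′ end. Their folds were 8.67 and 12.9 at pileups of 15 and 17. Replicate 3 covered the same region, chr19:39191845-39203503, with 1 peak of 8239 bp, whose summit at 39196755 had a fold of 3.94 and a pileup of 13. That peak ended at 39200142, before the summits of replicates 1 and 2.

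The second region of ACTN4 in all lists was chr19:39205183-39214460. Replicate 2 covered it with 1 peak of 9278 bp, the widest of the 68, with a fold of 4.25 and a pileup of 28 at 39208780. Replicate 3 had its summit 66 bp away, at 39208714, with a fold of 5.31 and a pileup of 26. Replicate 1 had its strongest summit elsewhere, at 39212300, with a fold of 5.85 and a pileup of 18. Between 39208714 and 39212563, 3850 bp were covered in all 3 lists, the longest such stretch in the 3 genes.

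Toward the 3′ end of ACTN4, each list had a peak that met none of the others. They lay at chr19:39217708-39218193 in replicate 1, chr19:39216450-39217542 in replicate 2 and chr19:39215128-39216021 in replicate 3. Pileups there were high, at 16, 30 and 26 fragments, but folds were low, at 3.13, 2.84 and 2.65. The deepest summit of all 68 peaks was at the other end of the gene. In replicate 2 a peak of 448 bp at chr19:39138496-39138943 began 169 bp past the start of the interval, with a pileup of 32 (95% Poisson interval 21.9 to 45.2). Its fold of 2.29 was the lowest of the 26 peaks in replicate 2, and replicates 1 and 3 had no peak there. The shallowest peak of the gene, in replicate 1 at chr19:39206490-39207242, had a pileup of 4 (95% Poisson interval 1.09 to 10.2) and a fold of 3.42.

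SPTAN1, the alpha spectrin, had 15 covered regions, 4 of them in all 3 lists, 5 in 2 and 6 in 1. In chr9:131348151-131353593 the summits were at 131349899, 131349958 and 131349896 in replicates 1, 2 and 3, within 62 bp of each other. Folds there were 6.33, 6.20 and 4.95, at pileups of 8, 8 and 9. This was the tightest set of 3 summits in the 3 genes. In chr9:131366607-131367631, of 1025 bp, folds were 4.22, 6.43 and 7.94 at pileups of 5, 8 and 11, with summits of replicates 2 and 3 at 30 bp from each other.

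The remaining shared regions of SPTAN1 lay nearer the 3′ end. In chr9:131375730-131383533, replicates 1 and 3 had summits 10 bp apart, at 131380332 and 131380322, with folds of 5.73 and 3.95. Replicates 1 and 2 also had summits 76 bp apart there, at 131377976 and 131378052, with folds of 3.72 and 7.86. In chr9:131388743-131392006 the folds were 4.22, 6.32 and 9.46 at pileups of 5, 9 and 12. The last was the highest fold of SPTAN1 in replicate 3, and its summit at 131389718 lay 20 bp from that of replicate 1. Among the regions of 2 lists, chr9:131387385-131388149 had folds of 5.96 in both replicates 1 and 3, with summits 68 bp apart.

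The SPTAN1 peaks farthest from the 3′ end came from replicates 1 and 2, and each met no peak of another list. They lay at chr9:131337552-131338964 in replicate 1, with a fold of 4.92 and a pileup of 6, and at chr9:131339166-131339763 in replicate 2, with a fold of 5.69 and a pileup of 8. In the next region, chr9:131342012-131344169, replicates 1 and 2 had folds of 6.33 and 7.80 at pileups of 8 and 10. Replicate 3 had no peak before 33.3 kb from the 5′ end. The same pair held the last peaks of the gene, at chr9:131393771-131395460, with folds of 3.97 and 7.58 at pileups of 8 and 11. The replicate 2 summit there lay 599 bp from the 3′ end, closer than any other summit of the 3 genes to its own. The shallowest peaks, with a pileup of 4, were 2 in replicate 1 and 1 in replicate 3, with folds of 3.51, 3.52 and 3.64. The lowest fold of SPTAN1 in replicate 2, 3.00 at a pileup of 9, was at chr9:131371581-131372024.

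Recurrence between lists was counted peak by peak. Peaks overlapped by at least 1 bp in both other lists numbered 12 of 24 in replicate 1, where 32.4% of the whole list did so. They numbered 12 of 26 in replicate 2 against 22.2% of the list, and 11 of 18 in replicate 3 against 26.5%. By gene, the share was 54.2% ± 10.2 in MYH9, 61.7% ± 12.6 in ACTN4 and 46.6% ± 10.4 in SPTAN1 (SD, n = 3), and the spreads of the genes overlapped. When the overlap had to reach 50% of each peak, the shares were 0%, 6.67% and 23.7%, and SPTAN1 came first. No whole-list share at this overlap stands beside them, so they cannot be called low or high for these lists. The genes were chosen from peaks of these lists, so the difference from the background is a description. Of the 31 covered regions, 9 (29.0%) lay in all 3 lists, 8 in 2 and 14 in 1, against 12.1% of all 3584 regions in all 3 lists.

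Recurrence was also counted by depth. Among peaks with a pileup of at least 10, 7 of 10, 5 of 13 and 8 of 9 recurred in both other lists in replicates 1, 2 and 3. In the whole lists 66.6%, 50.6% and 61.1% of such peaks did. Below a pileup of 10 the counts were 5 of 14, 7 of 13 and 3 of 9, against 21.7%, 12.5% and 15.3%. The deeper peaks of the genes thus recurred at about the share of their list in replicate 1, below it in replicate 2 and above it in replicate 3, and the shallower ones lay above it. Within the genes the deeper peaks recurred at the higher share in replicates 1 and 3, and at the lower share in replicate 2, with 38.5% against 53.8%. Neighbouring peaks of a gene are not independent, and the difference was not tested. The genes were chosen from peaks of these lists, so the differences from the list shares are descriptions at either depth.

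Exact positions recurred less than regions. A summit of another list lay within 100 bp for 10 of 24, 9 of 26 and 7 of 18 peaks, or 41.7%, 34.6% and 38.9%, where the whole lists had 20.4%, 16.8% and 18.1%. A summit of each other list lay within 100 bp for 1, 1 and 2 peaks, or 4.17%, 3.85% and 11.1%, beside 5.00%, 3.62% and 4.33% of the whole lists, so this share was near the background in replicates 1 and 2. These peaks were the SPTAN1 set near 131349899 and, for its replicate 3 summit only, the MYH9 set near 36708171, whose outer summits were 102 bp apart. Without replicate 3, the share of MYH9 peaks recurring in the 1 other list was 92.9%, and without replicate 2 that of SPTAN1 was 70.1%. These were the highest values with 1 replicate left out. The others were 50.0% and 59.8% in MYH9 and 62.6% in SPTAN1. Overlap with 1 list is an easier condition than with both, and no such share of the whole lists stands beside these. Differences from the whole lists in summit positions are descriptions too, since the genes were chosen from these peaks.

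**Figure D3:**
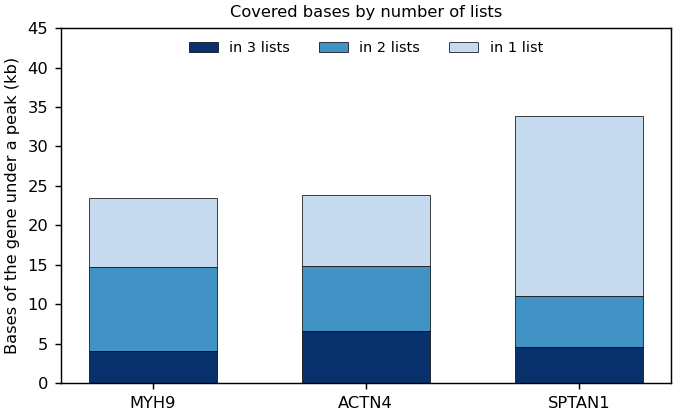
Bases of each gene under a peak, in kb (y axis), divided by the number of lists that cover them. SPTAN1 has the most covered bases, 33.9 kb, of which 22.9 kb are covered in 1 list only; ACTN4 has the most bases covered in all 3, 6.54 kb.

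Counts of peaks depend on how the caller joined neighbouring ones, so covered bases were compared too. Peaks covered 11.0, 19.6 and 11.6 kb of MYH9 in replicates 1, 2 and 3, or 14.1 ± 4.82 kb (SD, n = 3). They covered 10.8, 20.3 and 14.1 kb of ACTN4, or 15.1 ± 4.79 kb, and 14.3, 21.5 and 13.7 kb of SPTAN1, or 16.5 ± 4.33 kb (SD, n = 3). The genes overlapped on this scale, although SPTAN1 had more peaks than ACTN4, and replicate 2 covered the most bases of each. The bases covered in all 3 lists came to 4.09 kb in MYH9, 6.54 kb in ACTN4 and 4.59 kb in SPTAN1. These are 17.4%, 27.4% and 13.5% of the bases covered in any list.

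The median width of the genes' peaks was 1184.5, 1757 and 1136.5 bp in replicates 1, 2 and 3, beside 1869.5, 1557 and 1810 bp in the whole lists. None of the 68 reached 10 kb, and the narrowest, in SPTAN1, was 444 bp. In the whole lists 166 of 1480, 175 of 2155 and 163 of 1802 peaks were of 10 kb or more. Peaks under 10 kb had list medians of 1628, 1371 and 1613 bp. Of the 68, 10 overlapped 2 or more peaks of another list, a count that was not made for the whole lists. The summit lay within 100 bp of an edge of the peak in 9 of 24, 14 of 26 and 7 of 18, or 37.5%, 53.8% and 38.9%. The whole lists had 38.4%, 40.2% and 38.3%.

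Median depth at the summits of the 3 genes together was above that of the lists. The pileup counts the fragments that lie over a summit. It was worked back from each peak's deposited fold and p-value, and being a depth at 1 base it needs no correction for gene length. Its median was 8, 9.5 and 9.5 fragments in the 3 genes in replicates 1, 2 and 3, where each whole list had 6. ACTN4 had medians of 15, 22.5 and 19.5, MYH9 of 10, 14 and 7, and SPTAN1 of 8, 8 and 9. ACTN4 lay above both other genes in every replicate, and MYH9 and SPTAN1 overlapped. A pileup of at least 10 was reached by 12 of 15 peaks of ACTN4, 12 of 22 of MYH9 and 8 of 31 of SPTAN1. These are 80.0%, 54.5% and 25.8%, beside 23.6%, 25.3% and 24.3% of the whole lists. By list SPTAN1 had 18.2%, 30.8% and 28.6%, below its list in replicate 1 and somewhat above it in replicates 2 and 3.

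Fold enrichment, the authors' value for each peak, followed another order. Each list has its own depth and background, so folds of different lists stand side by side as values only. SPTAN1 had median folds of 4.22, 6.20 and 4.95, MYH9 of 4.09, 6.32 and 3.96, and ACTN4 of 3.52, 4.32 and 3.47. ACTN4 was lowest in every replicate, while SPTAN1 came before MYH9 in replicates 1 and 3 and after it in replicate 2. Over the 3 genes the median was 4.22, 5.94 and 4.04, beside 4.15, 4.16 and 3.97 in the whole lists. A −log10 q of at least 5 was reached by 7 of 24 peaks in replicate 1 (13.4% of the list), 15 of 26 in replicate 2 (15.6%) and 6 of 18 in replicate 3 (16.9%). In MYH9 the count was 1, 6 and 2, so replicate 2 gave most of its calls at this level.

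**Figure D4:**
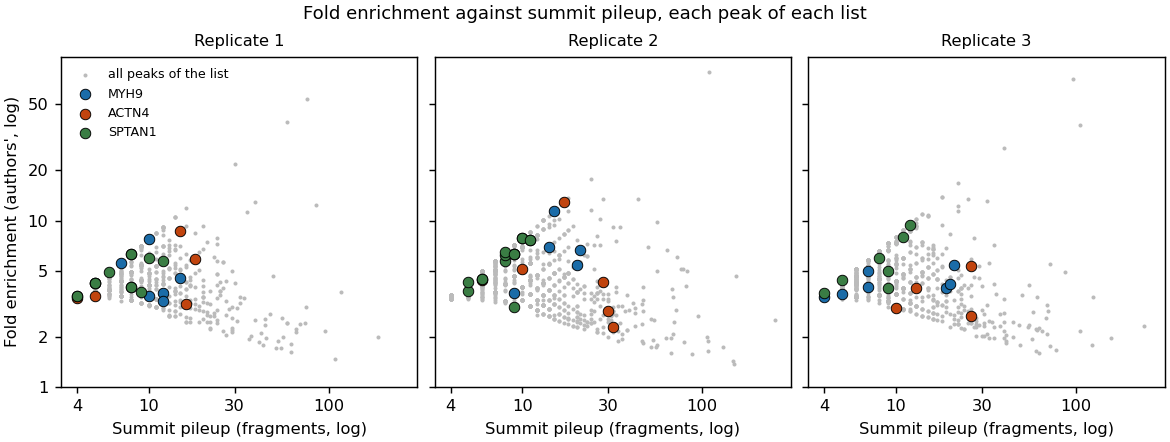
Fold enrichment given by the authors (y axis, log) against the pileup at the summit in fragments (x axis, log) for each peak, 1 panel per replicate; grey points are all peaks of the list and coloured points those of MYH9, ACTN4 and SPTAN1. SPTAN1 peaks have pileups of 4 to 12, and ACTN4 peaks reach a pileup of 32 at a fold of 2.29.

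The fold sets the pileup against the expected level, the depth that the caller took as background at the summit. It had a median of 0.423, 0.583 and 0.511 fragments in SPTAN1 in replicates 1, 2 and 3, the same values as in the whole lists. It was 1.69, 1.17 and 1.02 in MYH9 and 0.846, 3.50 and 3.38 in ACTN4. Summits within 0.5% of the lowest expected level of their list numbered 13 of 31 in SPTAN1, 3 of 22 in MYH9 and 1 of 15 in ACTN4. These are 41.9%, 13.6% and 6.67%, beside 50.5%, 42.6% and 40.1% of the whole lists. By list SPTAN1 had 63.6%, 23.1% and 42.9%, above its list in replicate 1, below it in replicate 2 and near it in replicate 3. MYH9 and ACTN4 lay below the list in every replicate. The sources used here do not name the sample that gave this level.

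Over all lists together, the expected level was higher near the 3′ end in MYH9 and ACTN4. In MYH9 its median over all lists was 0.446 for the 7 summits between 60% and 80% of the gene and 2.33 for the 15 in the final 20%. In ACTN4 it was 0.774 for 6 summits and 4.25 for 8 over the same stretches, and in SPTAN1 0.422 for 9 and 0.583 for 10. The contrast between the genes did not hold in each list. In replicate 2 the medians of MYH9 were 1.07 and 1.17, and in replicate 1 those of SPTAN1 were 0.422 and 1.06. Median pileups over all lists were 7 and 12 in MYH9, 11.5 and 22 in ACTN4, and 9 in both stretches of SPTAN1. The peak at the start of ACTN4 had the highest expected level of the 68, 13.4 fragments. These are descriptions over few summits that share genes and libraries, and they were not tested.

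**Figure D5:**
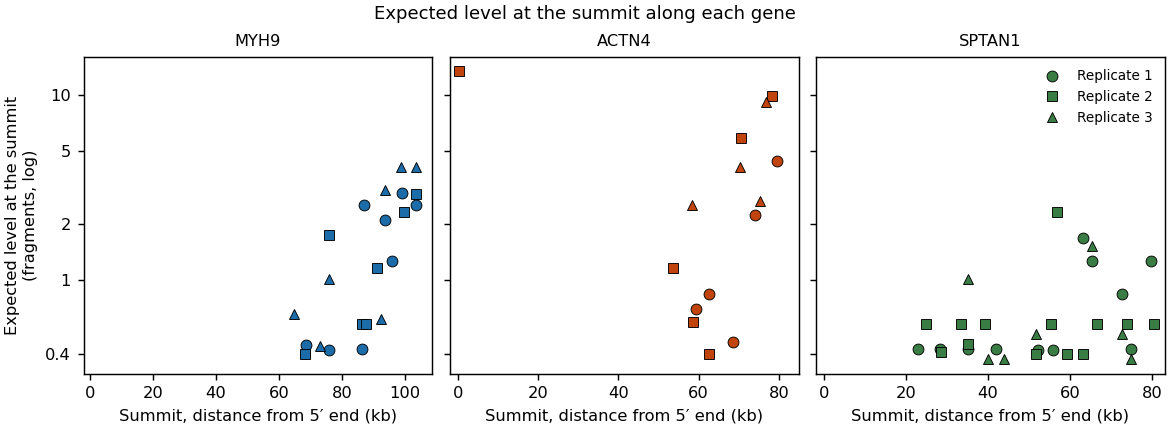
Expected level at each summit in fragments (y axis, log) against the distance of the summit from the 5′ end of its gene in kb; marker shapes are replicates. In MYH9 and ACTN4 the levels of the final 20% reach 4.09 and 9.90, and in SPTAN1 no summit exceeds 2.33.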

How the data were processed

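RNA immunoprecipitation and sequencing was done on AGS cells, and 1 narrowPeak list per RBM8A immunoprecipitate was used. The submitters' processing notes name MACS2 and HISAT2 beside FastQC, SAMtools and GATK, and versions and settings are not stated. Each deposited peak has a fold, the authors' ratio of pileup to expected level, each with 1 added. The authors' caller also wrote −log10 of the p-value, −log10 of the q-value and a score column. The deposited score was not used. The lowest −log10 q was 1.32, 1.36 and 1.32 in replicates 1, 2 and 3. The other deposited columns (start, end and summit offset in bp) give positions, printed here counted from 1.

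The lists hold no read totals, so library depth is unknown. For each peak, the whole number up to 400 was sought that gives both the fold and the −log10 p-value (Poisson upper tail, within 0.0005), found for 68 of 68 peaks of the genes and 5426 of 5437 in all. Expected levels follow from it. The search was tested on simulated pileups, whose expected levels did not reach the highest of the genes' peaks. The overlap rules were tested on copies of the peaks of a list, left in place or moved far away, so no partial overlap was tried.

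Gene intervals came from the rule that defines the genes, and strand from the RefSeq promoter table. The members and lists were chosen with earlier results of these data known. Every peak of the genes is counted; single peaks are described where all 3 lists share a region or where fold or pileup is the highest or lowest of the gene, and a few others, such as the peaks toward the 3′ end of ACTN4, were chosen after their values were seen. Other actomyosin and spectrin genes, listed for use with an hg19 annotation, were not analysed here, and no sequence of hg19 was used. The windows, summit edges, joined peaks and comparison by pileup were added after the lists were seen. No tests were run. Alternatives were a stricter q or fold, summits inside the gene, peaks under 10 kb, other overlap rules and leaving out each replicate. The scripts ran in Python 3.11.15 with scipy 1.17.1, pandas 2.3.3, matplotlib 3.10.9, numpy 2.4.6 and pyranges 0.1.4 (hg19 chromosome lengths).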

Additional observations from a re-analysis of the deposited data

How the results depend on the processing

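Values here are means over replicates of each list's count, share or median. Restriction to summits inside the gene or to peaks under 10 kb removed none of the 68 peaks, so neither tests the values. Stricter limits keep fewer peaks by construction. At −log10 q of 5 or more, peaks per list were 3.00 in MYH9, 1.67 in ACTN4 and 4.67 in SPTAN1, and 3.00, 1.67 and 5.00 with a fold of at least 5. With the limit applied to all lists, the share recurring in both others was 0% in MYH9 and SPTAN1 under either limit. In ACTN4 it was 66.7% with the q limit and 0% with the fold limit. The q limit left 1, 6 and 2 peaks of MYH9 and 2, 2 and 1 of ACTN4 in replicates 1, 2 and 3, too few to set the genes apart. Against the unlimited lists, 5 of 7, 8 of 15 and 5 of 6 peaks past the q limit recurred in replicates 1, 2 and 3. Median folds rose to 6.32, 7.04 and 7.22 with the q limit and 6.17, 7.18 and 7.03 with the fold limit, in that order of genes. Median pileups were 15 and 14.7 in MYH9 and 10.0 and 9.83 in SPTAN1. Median widths were 5159 and 4210 bp in ACTN4, and 1522 bp in SPTAN1 with the q limit. Median positions were 73.3% and 72.6% in SPTAN1, and 79.7% in MYH9 with the fold limit. The share recurring in both other lists was 0%, 6.67% and 23.7% in MYH9, ACTN4 and SPTAN1 when the overlap had to reach 50% of each peak. It was 4.76%, 0% and 10.4% for summits within 100 bp. Without 1 replicate, recurrence in the 1 list left was 50.0% to 92.9% in MYH9 (the highest without replicate 3). It was 65.0% to 70.8% in ACTN4 (the highest without replicate 1) and 62.6% to 70.1% in SPTAN1 (the highest without replicate 2). With all lists the shares were 54.2%, 61.7% and 46.6%, but there a peak had to be shared with both other lists. No whole-list share stands beside those at 50% overlap or those without 1 replicate. No paired analysis was possible because no test was made and the inputs had no list here. In SPTAN1, with 4 to 12 fragments at a summit, counting error is wide.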
